A study of Homo sapiens with 10 samples.

Results

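Histone genes encode the proteins that package DNA, and 45 of them were among the 14054 genes counted in MRC5, a fibroblast line from human lung, over 10 libraries. Members were all genes annotated as protein-coding whose current symbol starts with H1-, H2A, H2B, H3-, H3C, H4-, H4C or MACROH2A, with CENPA left out. The annotation used holds 88 such genes, and those without a row were not analysed here. Of the 45 members, 8 encode linker histones (H1), 28 encode replication-dependent core histones (11 H2A, 7 H2B, 5 H3 and 5 H4) and 9 encode core variants. In all, 36 members passed the filter on low counts and were tested, and the other 9 had between 0 and 14 counts in every library.

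The static group holds 5 libraries of MRC5 cells given medium that unstretched A549 cells had conditioned. A549 is an epithelial tumour line from human lung. The stretch group holds 5 libraries of MRC5 cells given medium from stretched A549 cells. No other treatment or genetic change is stated for either group. The sample descriptions give 24 hours of conditioned medium and the series design gives 6 hours, so the exposure time is not settled here. The comparison asks how fibroblasts respond to factors released by stretched epithelial cells.

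Libraries held between 4231653 and 8455073 counts, and histone members took 0.405% to 0.515% of them. Within a group, chi-square per degree of freedom between library pairs was 6.05 to 24.5, so no library was treated as a second deposit of another. No label names separate cultures, and the p-values therefore reflect only how these samples vary, which may be technical. All 12 fibroblast markers checked had a row and together reached 14076 to 17645 CPM (a count relative to the TMM-scaled total of its library). Of 12 markers of A549 cells and lung epithelium, 7 had a row, and their summed level was 36.2 to 48.1 CPM in static and 41.9 to 52.0 CPM in stretch libraries. Their part in the results below was not tested. Of 4 endothelial markers 3 had a row and summed to at most 9.38 CPM, and of 5 leukocyte markers 2 had a row, CD68, which fibroblasts also express, and CD14 at a mean of at most 1.43 CPM.

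Core histones H2A, H2B, H3 and H4 form the protein spool around which DNA winds, and a linker histone H1 binds where DNA enters and leaves it and helps to compact the fibre. Replication-dependent genes lie mostly in clusters, are transcribed while DNA is copied and give mRNAs that end in a stem-loop in place of a poly(A) tail. Replication-independent genes, among them those of the variants H2A.Z and H3.3, are transcribed through the cell cycle. H2A.Z and H3.3 replace core histones outside replication. Whether the library kit primed from poly(A) tails is not given in the sources used here. Reads came from PCR amplicons, so levels are compared between groups for a gene and not between genes.

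Linker H1 genes had the lowest median fold change of the histone classes, core genes were mixed and variants had a median near 0, but no histone gene passed the threshold over all genes. In edgeR's quasi-likelihood test, 0 of the 36 tested members had an adjusted p under 0.05, as did 0% of all 10968 genes tested. DESeq2 called 2 members, H1-4 and H1-10, both lower with stretch medium, where it called 2.71% of the genes to which it gave an adjusted p. At an unadjusted p under 0.05, 8 members were lower and 1 was higher with stretch medium, against a background of 8.37% of all genes lower and 8.08% higher. CPM did not overlap between the groups for 2 members, H1-4 and H1-10, both lower, where 3.72% of all genes did not overlap, 1.98% lower and 1.74% higher. Of the tested members, 23 had a log2 fold change below 0, and 49.9% of all genes did. In bulk RNA, fewer cells in the phase that makes a histone mRNA and less of it per cell cannot be told apart.

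**Figure D1:**
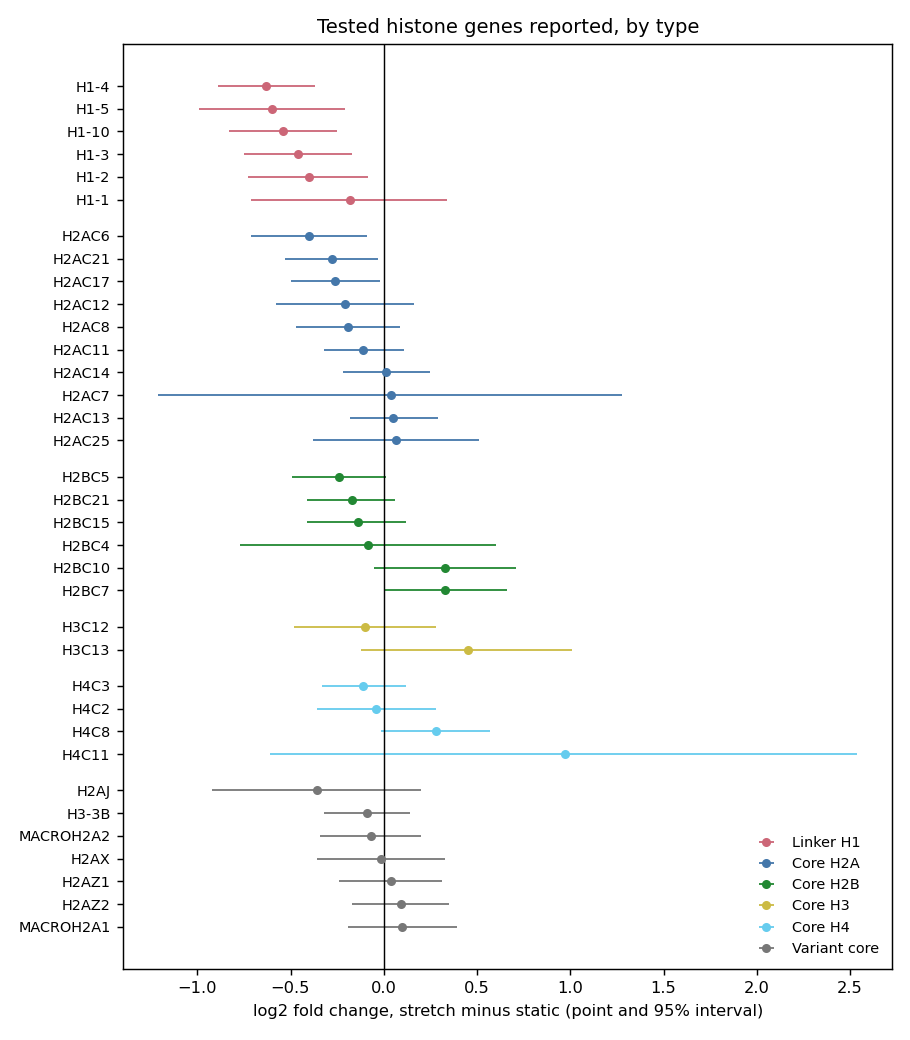
Log2 fold change of stretch minus static medium (x axis) for the tested histone genes reported here (y axis, grouped by type and colour), with points for estimates and bars for 95% intervals. The intervals of H1-2 to H1-5, H1-10 and the core genes H2AC6, H2AC17 and H2AC21 lie below 0, and that of H2BC7 lies above it. The 7 variant genes have intervals that span 0.

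The replication-dependent linker genes H1-1 to H1-5 all had estimates below 0, and their median on the log2 scale was -0.46. The median over all genes tested was 0.00035. H1-2 to H1-5 had an unadjusted p under 0.05 and H1-1 did not, where 8.37% of all genes were lower at that p. These genes share promoter elements, so the 300 bases around the RefSeq start (250 before and 50 after, build GRCh38.p14) are shown for the 4 of them with the lower p-values, for the replication-independent H1-10, which had a similar estimate, and for H2BC7, the member on the other side of 0 at an unadjusted p under 0.05. Each is written 5′ to 3′ on the strand of the gene. Capitals mark the H1 box AAACACA, the CCAAT box CCAAT, the TATA box TATAAA and the octamer ATTTGCAT, each searched on both strands and counted also where matches overlap.
H1-4 (chr6:26156079-26156378, plus strand): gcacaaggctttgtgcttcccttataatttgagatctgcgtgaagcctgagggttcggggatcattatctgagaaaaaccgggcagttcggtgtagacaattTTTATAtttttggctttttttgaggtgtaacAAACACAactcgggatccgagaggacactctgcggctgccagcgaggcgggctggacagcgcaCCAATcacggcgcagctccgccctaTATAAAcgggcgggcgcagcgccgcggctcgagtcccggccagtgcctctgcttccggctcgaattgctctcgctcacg
H1-5 (chr6:27867539-27867838, minus strand): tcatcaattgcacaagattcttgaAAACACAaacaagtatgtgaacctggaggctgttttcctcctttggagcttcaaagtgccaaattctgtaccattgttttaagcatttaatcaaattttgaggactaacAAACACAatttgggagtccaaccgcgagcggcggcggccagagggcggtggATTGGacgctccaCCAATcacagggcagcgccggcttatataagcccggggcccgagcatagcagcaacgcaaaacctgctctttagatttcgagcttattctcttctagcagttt
H1-3 (chr6:26234938-26235237, minus strand): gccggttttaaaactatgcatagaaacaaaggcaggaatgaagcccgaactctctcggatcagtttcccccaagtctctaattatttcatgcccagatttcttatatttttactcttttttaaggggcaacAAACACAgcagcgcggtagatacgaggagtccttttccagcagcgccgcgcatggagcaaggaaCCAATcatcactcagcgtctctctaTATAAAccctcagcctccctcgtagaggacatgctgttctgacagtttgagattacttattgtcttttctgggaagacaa
H1-2 (chr6:26056421-26056720, minus strand): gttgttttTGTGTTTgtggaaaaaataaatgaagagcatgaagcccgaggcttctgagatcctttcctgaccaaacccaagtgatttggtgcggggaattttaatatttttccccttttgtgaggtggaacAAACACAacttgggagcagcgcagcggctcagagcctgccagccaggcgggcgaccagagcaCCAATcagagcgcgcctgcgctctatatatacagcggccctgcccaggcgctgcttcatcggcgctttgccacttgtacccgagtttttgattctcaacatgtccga
H1-10 (chr3:129316237-129316536, minus strand): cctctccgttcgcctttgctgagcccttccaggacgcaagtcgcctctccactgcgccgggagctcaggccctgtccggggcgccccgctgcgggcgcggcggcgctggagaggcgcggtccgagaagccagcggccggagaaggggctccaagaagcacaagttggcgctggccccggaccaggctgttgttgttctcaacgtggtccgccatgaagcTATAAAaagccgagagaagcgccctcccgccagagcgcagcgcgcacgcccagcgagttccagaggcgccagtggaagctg
H2BC7 (chr6:26199266-26199565, plus strand): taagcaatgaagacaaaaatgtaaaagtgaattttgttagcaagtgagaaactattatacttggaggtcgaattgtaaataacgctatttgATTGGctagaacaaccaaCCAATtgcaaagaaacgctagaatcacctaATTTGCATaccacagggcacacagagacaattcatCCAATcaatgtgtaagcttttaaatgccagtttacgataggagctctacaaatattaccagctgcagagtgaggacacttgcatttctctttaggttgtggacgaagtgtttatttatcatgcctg

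The H1 box was found in the windows of all 5 replication-dependent linker members, in that of the germ-line H1-6 and in 6.94% of the 27305 genes with a promoter in the RefSeq table. In H1-4 and H1-5 a copy began 117 bases before the start, and in H1-2 and H1-3 it began 119 bases before it, while H1-1 held it on the other strand at 183 bases. H1-2 and H1-5 each held a further copy, at 242 bases on the other strand and at 226 bases. The CCAAT box followed, at 54 bases before the start in H1-4, 53 in H1-5, 55 in H1-3 and 57 in H1-2. The H1-10 window held a TATA box 31 bases before the start and neither of those boxes. Among core members with a RefSeq promoter, the H1 box stood in 1 of 10 H2A (H2AC20), 0 of 7 H2B, 1 of 4 H3 (H3C14) and 0 of 4 H4 windows, and in 0 of 9 variants. The octamer, a site of POU-domain factors known from H2B promoters, was found in 8 of the 10 H2A and 4 of the 7 H2B windows, against 2.19% of all genes, and in 0 of the 5 replication-dependent linker windows. These H2A and H2B counts are not independent. The windows of H2AC6 and H2BC4, H2AC7 and H2BC7, and H2AC20 and H2BC21 overlap, and each pair shares the same octamer. The CCAAT box, at 39.7% of all genes, was in every replication-dependent H2A, H2B and H3 window and in 0 of the 4 H4 windows. These are matches of letters, not evidence of binding.

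H1-4, a main somatic linker histone (ENSG00000168298, a single-exon gene at chromosome 6, 26156354 to 26157107), had the smallest p-value of the members. With static medium it was at 64.6, 63.2, 68.3, 68.0 and 85.1 CPM in static 1, 3, 5, 7 and 9, and with stretch medium at 48.7, 50.8, 41.8, 38.8 and 46.0 CPM in stretch 2, 4, 6, 8 and 10. Each stretch library lay below each static library. The means were 69.8 ± 8.79 and 45.2 ± 4.92 CPM (SD, n = 5 each), 35.4% lower with stretch medium, and the log2 fold change was -0.63 ± 0.12 (SE; 95% interval -0.89 to -0.37; edgeR adjusted p = 0.0840). DESeq2 gave an adjusted p of 0.00125. Wherever a pair of means is given for a gene, static comes first, with the SD over 5 libraries each. With a library left out, edgeR's adjusted p ran from 0.0362 without stretch 4, the only such fit in which it passed, to 0.217.

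H1-5 (ENSG00000184357, chromosome 6, 27866849 to 27867529), another somatic linker histone of dividing cells, was at 33.2, 27.5, 40.9, 47.6 and 47.6 CPM with static medium and at 18.1, 32.7, 25.3, 22.5 and 31.3 CPM with stretch medium, in the library order given for H1-4. Static 3 lay inside the stretch range, and the other static libraries lay above it. The log2 fold change was -0.60 ± 0.18 (95% interval -0.99 to -0.21, edgeR adjusted p = 0.141, DESeq2 adjusted p = 0.0566).

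H1-3 (ENSG00000124575, chromosome 6, 26234268 to 26234933) was at 90.6, 85.1, 59.7, 94.1 and 81.8 CPM in static and at 49.3, 53.5, 63.1, 70.2 and 62.7 CPM in stretch libraries. Only static 5 fell inside the stretch range. Its log2 fold change was -0.46 ± 0.14 (95% interval -0.75 to -0.17, edgeR adjusted p = 0.139). H1-2 (ENSG00000187837, chromosome 6, 26055787 to 26056428) was at 87.9, 90.9, 70.0, 85.4 and 68.2 CPM in static and at 41.2, 63.3, 52.8, 70.8 and 75.6 CPM in stretch libraries. Here static 5 and 9 lay inside the stretch range. The log2 fold change of H1-2 was -0.40 ± 0.15 (edgeR adjusted p = 0.213), and without stretch 2, its lowest library, it was -0.30. H1-1, the least counted of the 5, was at 8.80 ± 2.81 CPM in static and 7.76 ± 2.54 CPM in stretch libraries, with an interval of -0.71 to 0.34.

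H1-10, a replication-independent linker histone also called H1x (ENSG00000184897, chromosome 3), was at 39.1, 42.0, 45.7, 54.2 and 36.5 CPM in static and at 25.3, 35.6, 31.8, 28.0 and 28.5 CPM in stretch libraries. The groups did not overlap, although static 9 and stretch 4 lay close together. Its log2 fold change was -0.54 ± 0.14 (95% interval -0.83 to -0.25, edgeR adjusted p = 0.111, DESeq2 adjusted p = 0.0192). Its annotated bounds overlap those of an antisense RNA, H1FX-AS1, and how strand was used in counting is not stated in the labels. The testis linker gene H1-6 had at most 5 counts in a library and was not tested.

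**Figure D2:**
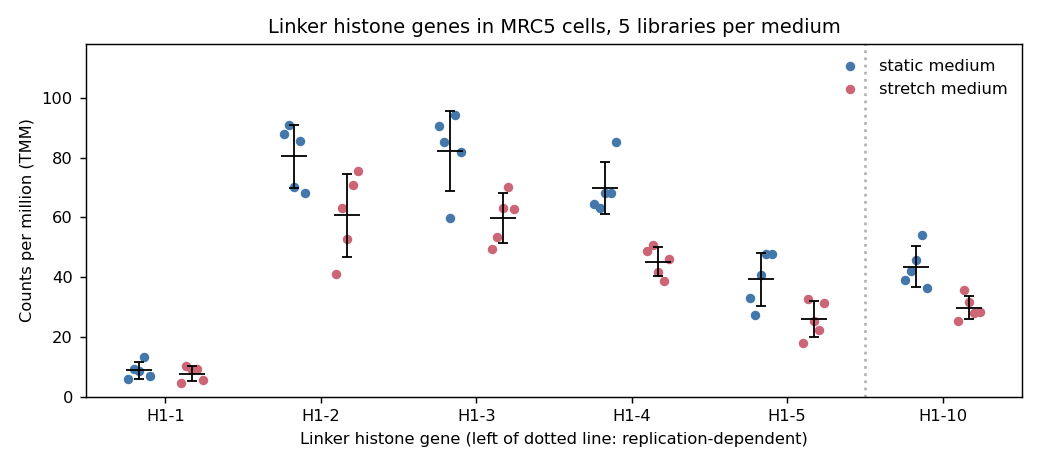
CPM (y axis) of H1-1 to H1-5 and H1-10 (x axis) in each of the 5 static and 5 stretch libraries, with the mean and SD as black bars. The stretch libraries of H1-4 and H1-10 lie wholly below the static libraries, while those of H1-1 overlap them.

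Summed over H1-1 to H1-5, CPM were 282, 276, 248, 308 and 289 in static 1, 3, 5, 7 and 9 and 162, 211, 192, 212 and 221 in stretch 2, 4, 6, 8 and 10. The static libraries all lay above the stretch libraries. The 28 replication-dependent core genes summed to 1448 ± 133 CPM in static and 1324 ± 59.7 CPM in stretch libraries, with ranges of 1300 to 1653 and 1238 to 1384 that overlapped. The 9 variants summed to 2761 ± 298 and 2757 ± 250 CPM. A sum weights members by their counts, and it is given as a description with no test.

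The ratio of linker to core counts needs no scaling between libraries. For each 100 counts of the core genes there were 21.7, 19.9, 17.4, 18.6 and 19.5 counts of H1-1 to H1-5 in the static libraries. In the stretch libraries there were 13.1, 16.4, 14.2, 15.6 and 16.0. The lowest static value, in static 5, lay above the highest stretch value, in stretch 4, and the stretch mean was 0.774 of the static mean. Many core genes share sequence with near-identical copies. With the 17 core members that share at most 20% of their 31-base words with another gene, the ratio of the means was 0.782, a choice made after seeing the data. H1-1 to H1-5 each shared at most 1.84% of such words with other annotated transcripts. Here and below, words were counted over whole annotated transcripts and not over the amplicons, so the shares do not show which reads are ambiguous.

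**Figure D3:**
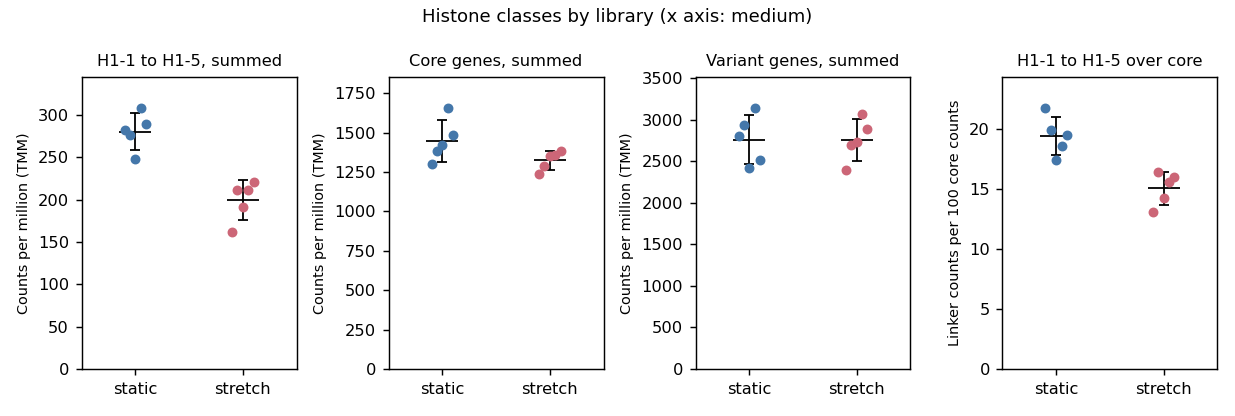
Summed CPM of the replication-dependent linker, core and variant histone genes, and linker counts per 100 core counts (y axes, each from 0), for 5 static and 5 stretch libraries (x axis), with mean and SD as black bars. The linker sums and the ratio do not overlap between the media, and the core and variant sums do.

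Among the replication-dependent core genes, 13 of 22 tested were below 0 and 9 above, and the median was -0.094 on the log2 scale. It was -0.046 without static 7 and -0.13 without static 1. Those of H2A were lowest, with a median of -0.15 over 10 genes, and 3 of them had an unadjusted p under 0.05, each lower. Over all genes tested, 8.37% were lower at that p. H2AC6 (ENSG00000180573, chromosome 6, 26124145 to 26139116), an H2A gene that also gives a spliced transcript, was at 38.9, 52.4, 54.1, 57.0 and 47.1 CPM in static and at 35.8, 49.6, 28.8, 36.7 and 39.2 CPM in stretch libraries. Static 1 and static 9 lay inside the stretch range. The log2 fold change of H2AC6 was -0.40 ± 0.15 (edgeR adjusted p = 0.203). H2AC21 (ENSG00000184270, chromosome 1) was at 49.8 ± 5.60 and 41.1 ± 4.35 CPM, or -0.28 ± 0.12. Its bounds overlap those of BOLA1. H2AC17 (ENSG00000278677, chromosome 6), at -0.26 ± 0.11, is uncertain because its bounds overlap those of H3C12, with which it shares 87.1% of its 31-base words. H2AC11 was at 91.1 ± 9.06 and 84.7 ± 4.36 CPM, with an interval of -0.32 to 0.11, and the other 6 H2A genes tested had intervals that spanned 0. Among these, H2AC13 and H2AC14 share 63.8% and 86% of their words with other genes and are uncertain.

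Of the 6 H2B genes tested, 4 were below 0 and 2 above, with a median of -0.11 that was 0.035 without static 5 and -0.19 without static 1. H2BC7 (ENSG00000277224, chromosome 6, 26199520 to 26200715) was at 23.1, 27.2, 18.9, 30.3 and 23.1 CPM in static and at 27.6, 23.9, 34.8, 35.0 and 33.2 CPM in stretch libraries. Stretch 6, 8 and 10 lay above the static range, and stretch 2 and 4 inside it. Its log2 fold change of 0.33 ± 0.15 had an unadjusted p of 0.0455 and an edgeR adjusted p of 0.294. H2BC5 (chromosome 6, 26158146 to 26171349) was at 261, 227, 219, 297 and 254 CPM in static and at 167, 211, 242, 222 and 225 CPM in stretch libraries. Its groups overlapped, and its estimate was -0.24 with an interval of -0.49 to 0.012. H2BC21 (chromosome 1) was at 155 ± 15.9 and 138 ± 16.1 CPM, or -0.17 ± 0.11. H2BC4, named here after its values were seen, varied most among the members above 10 CPM. It ran from 26.0 to 96.7 CPM in static and from 25.1 to 62.7 CPM in stretch libraries. High and low libraries occurred in both groups, and its interval was -0.77 to 0.60.

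Few H3 and H4 genes could be followed. The H3 gene H3C12 was at 92.8 ± 31.5 CPM in static and 86.6 ± 14.2 CPM in stretch libraries, and static 7 alone stood at 148 CPM. It shares 42.4% of its 31-base words with the overlapping H2AC17 and is uncertain. H3C13, at 2.74 ± 0.784 and 3.84 ± 1.04 CPM, had an interval of -0.12 to 1.01 and is uncertain too, since it shares 86.4% of its words with other genes, 69.8% with H3P4. H4C3 (ENSG00000197061, chromosome 6), which shared no 31-base word with another gene, was at 183 ± 24.4 and 170 ± 8.26 CPM, or -0.11 ± 0.11. H4C8, at 46.1 ± 8.23 and 55.9 ± 7.72 CPM, was at 0.28 ± 0.14, with an unadjusted p of 0.0600 in edgeR. H4C11, named here after its values were seen, had the widest interval, -0.61 to 2.54. It had 66 counts in stretch 10, 0 in static 7 and stretch 4, and 10 to 28 in the others, and it shares 82.2% of its 31-base words with H4C12. The median of the 4 H4 genes was 0.12, but with the counts of all H4 members summed to 1 feature the estimate was -0.0094. The H4 median was -0.091 without stretch 10. For H3 the median of 0.17, which rests on H3C12 and H3C13 alone, was 0.35 without static 7 and 0.077 without stretch 10, and became -0.085 when summed. With at least 50 counts required in 5 libraries the H4 median was -0.052. For H3 that filter left H3C12 alone, at -0.11. Summed H2A, H2B and linker genes stood at -0.18, -0.15 and -0.50.

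Stem-loops that end replication-dependent mRNAs were looked for by the histone stem-loop motif in the annotated transcripts (GENCODE 29, transcript strand only). They were found in 18 of the 28 core members, in the variant H2AX and in 0 of the linker members, against 0.683% of protein-coding genes. Several of the gene models, those of H1-1, H1-2, H1-3 and H1-5 among them, end at the stop codon, before the place of the stem-loop. The search could not find a stem-loop in such models, so the 0 for linker members does not show that their mRNAs lack it. The forms found are shown with the members that carry them, and capitals mark the whole motif.
H2AC6, H2BC21 and 7 others: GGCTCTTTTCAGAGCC
H2BC4, H2BC5, H2BC7 and H3-4: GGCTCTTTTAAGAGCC
H4C2, H4C8, H4C11 and H4C16: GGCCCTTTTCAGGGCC
H2AC11: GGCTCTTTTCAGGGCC
H2AX: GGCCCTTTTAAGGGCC
H2BC5, with an interval of -0.49 to 0.012, and H2BC7, with an edgeR adjusted p of 0.294, had the same letters. Any part of the stem-loop in these estimates was not tested.

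None of the 7 variant genes tested had an unadjusted p under 0.05, where 16.4% of all genes did. Their median was -0.012 on the log2 scale, with a range from -0.095 without static 3 to 0.042 without static 7. H2AZ1, which encodes the H2A.Z variant placed at promoters (ENSG00000164032, chromosome 4), was at 1411, 1418, 1084, 1304 and 995 CPM in static and at 963, 1308, 1215, 1454 and 1437 CPM in stretch libraries. The groups covered nearly the same range, with an interval of -0.24 to 0.31. H3-3B, 1 of the genes for the replacement histone H3.3 (ENSG00000132475, chromosome 17), was at 1015 ± 147 and 954 ± 80.2 CPM, with an interval of -0.32 to 0.14. H2AX, whose product is phosphorylated at DNA breaks, was at 59.2 ± 15.2 and 58.8 ± 7.90 CPM, with an interval of -0.36 to 0.33. The macroH2A genes MACROH2A1 and MACROH2A2, whose large variant histones mark silent and senescent chromatin, had intervals of -0.19 to 0.39 and -0.34 to 0.20. H2AZ2 was at 329 ± 57.6 and 350 ± 31.9 CPM. H2AJ, a variant that accumulates in senescent fibroblasts, was at 2.64 ± 0.474 and 2.08 ± 0.567 CPM, with an interval of -0.92 to 0.20.

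The 9 members that were not tested were H1-6, H2AC20, H2BC13, H3-4, H3C10, H3C14, H4C16, H2AB2 and H2AP. A floor of 3 counts corresponded to 0.354 to 0.679 CPM in these libraries, and it covers counting error only. H3-4, a testis H3 gene, had 6, 10, 13, 8 and 7 counts with static and 4, 4, 7, 8 and 5 counts with stretch medium. H2AC20 had 14 counts in stretch 2 and at most 9 in any other library. No direction was read from these genes.

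Members on chromosome 6 lie in a cluster, of which 26 were in the table and 23 were tested. From H1-1 at its start, the first 14 tested genes started within 260.5 kb and had a median of -0.14 on the log2 scale, and the other 9, starting from 1116 to 1875.7 kb, had a median of -0.11. Linker genes are given beside the nearest tested core members, with no test of their difference. Histone genes without a row may lie between them. H1-4, at -0.63, starts at 139.3 kb, between H2AC6, at -0.40 and 107.1 kb, and H2BC5, at -0.24 and 141.1 kb. H1-5, at -0.60, lies between H2BC15, at -0.14, and H3C12, at -0.10. H1-1, at -0.18, has H4C2, at -0.043, as its nearest tested core member. H1-2, at -0.40, lies between H4C2 and H4C3, at -0.11. H1-3, at -0.46, lies between H2AC8, at -0.19, and H2BC10, at 0.33. In pairs read away from a shared start region, H2BC4 and H2AC6 were at -0.085 and -0.40 with 219 bases between their starts, and H2AC7 and H2BC7 were at 0.036 and 0.33 with 277 bases between them. H2AC7 is uncertain because it shares 98.1% of its 31-base words with another gene (ENSG00000282988), and it had 0 counts in stretch 4 and stretch 10.

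**Figure D4:**
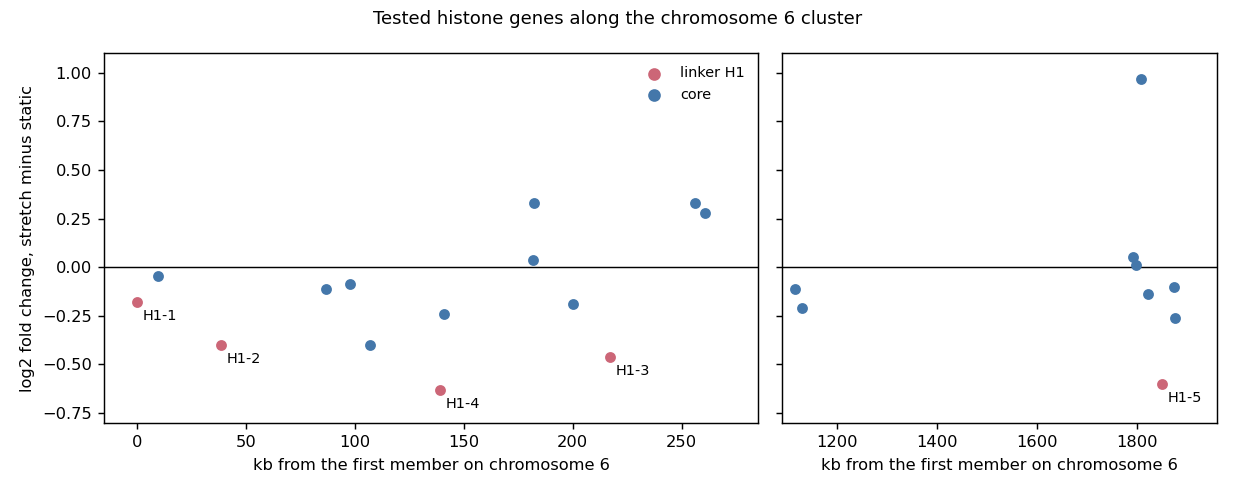
Log2 fold change of stretch minus static medium (y axis) of the 23 tested histone genes on chromosome 6 against distance from the first member in kb (x axis, in 2 panels with different scales), linker genes in red and core genes in blue. H1-2 to H1-5 lie between -0.63 and -0.40, where H2AC6 is the core gene that reaches -0.40.

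Genes that act on histone mRNAs and proteins were followed beside the members. Of 19 genes of histone gene transcription and mRNA processing, 17 were tested, 8 below and 9 above 0, with a median of 0.0062, and edgeR called 0. At an unadjusted p under 0.05, TUT7 and CPSF3 were lower and SYMPK and ZNF473 were higher. Of all genes tested, 8.37% were lower and 8.08% higher at that p. TUT7, a uridylyl transferase that takes part in histone mRNA decay, was at 4.81 ± 1.29 CPM in static and 2.31 ± 1.01 CPM in stretch libraries (log2 fold change -1.04 ± 0.29, edgeR adjusted p = 0.129). The processing nuclease gene CPSF3 was at -0.39 ± 0.17 and the scaffold gene SYMPK at 0.32 ± 0.14. The stem-loop binding protein gene SLBP and the cluster activator gene NPAT had intervals of -0.12 to 0.37 and -0.50 to 0.094.

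Histone chaperones, which carry histones to and from DNA, had 15 of 30 tested genes below 0, a median of 0.0087 and 0 called by edgeR. At an unadjusted p under 0.05, NAP1L1 and ASF1A were lower and SRCAP, EP400, ASF1B and CABIN1 were higher. The share of all genes at that p was 8.37% lower and 8.08% higher. SRCAP, the motor of a complex that deposits H2A.Z, was at 51.6 ± 7.47 and 68.7 ± 11.4 CPM, or 0.41 ± 0.14. NAP1L1, a chaperone of H2A and H2B, was at -0.41 ± 0.15, and EP400 at 0.44 ± 0.16. The paralogs ASF1A and ASF1B, which hand over H3 and H4, had estimates of -0.29 ± 0.11 and 0.40 ± 0.16.

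S-phase genes are active while replication-dependent histones are made. Of 24 tested, 15 were above 0 and 9 below, and the median was 0.12. At an unadjusted p under 0.05, 7 were higher and 1, RRM2, was lower, against 8.08% of all genes higher and 8.37% lower. In edgeR 0 passed over all genes. MCM5, a subunit of the replicative helicase, was at 20.8 ± 4.46 and 30.8 ± 4.12 CPM without overlap, a log2 fold change of 0.57 ± 0.16 (edgeR adjusted p = 0.129). DESeq2 called MCM5 higher, with an adjusted p of 0.0371. Over all genes, 1.74% were higher without overlap, and DESeq2 called 2.71% of those to which it gave an adjusted p. The helicase subunit gene MCM4 was at 0.42 ± 0.14 and the replication gene CDC45 at 0.45 ± 0.15. The list summed to 1733 ± 126 CPM in static and 1789 ± 54.4 CPM in stretch libraries. For each 100 counts of the S-phase list there were 14.7 to 17.4 counts of H1-1 to H1-5 with static and 9.33 to 12.1 with stretch medium, ranges that did not overlap. The part of these genes in the linker result was not tested. For the core genes the ranges were 76.4 to 89.3 and 71.4 to 77.5, which overlapped.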

How the data were processed

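Total RNA of 10 MRC5 libraries was made into Ion AmpliSeq Transcriptome Human Gene Expression libraries, per the labels' protocols. Per the submitters' processing notes, fastp 0.20.1, Salmon 1.9 and hg38/GRCh38 were used. The sources used here do not give the role of each, the annotation, strand use or molecular identifiers. The authors deposited whole-number counts per Ensembl gene, unscaled, and every gene in the table was above 0 in at least 5 libraries. Columns were matched to samples by the number in each title.

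Symbols were found for 13831 identifiers, and 223 had none. Positions and transcripts are from GENCODE 29 (GRCh38), and promoters from RefSeq (GRCh38.p14), which held 41 of the 45 members. The test was edgeR 4.0.16 under R 4.3.3 (filterByExpr, count minimum 10, total minimum 15; TMM, quasi-likelihood test, Benjamini-Hochberg over 10968 genes, threshold 0.05). ± is the SD for CPM and the SE for fold changes. On simulated counts for these 10968 genes, 86 of 100 genes changed by 1 on the log2 scale were recovered, and 14 unchanged genes were called. Changes smaller than 1, such as those of the linker genes, were not simulated, so recovery at their size is not known. Members and lists were chosen with earlier results of these data known. Named members were those with an unadjusted p under 0.05, those without overlap and the 2 highest of each type. Of each context list, the 3 genes with the smallest p were named, and further genes were picked with their values known. Alternatives were other scalings and filters, DESeq2 1.42.0, limma-voom 3.58.1, edgeR's robust fit, summed types, a threshold of 0.1 and each library left out. The values of 1 tested member are not reported here, and the counts over members include it.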

Additional observations from a re-analysis of the deposited data

Results flagged for a closer look

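Of 38 groups of 5 libraries tested over the 19 named members, 2 held a library whose gap to its nearest neighbour took more than 0.71 of the group's range, where chance gives about 1 in 20. H3C12 stood at 148 CPM in static 7 and at 73.6 to 89.0 CPM in the other static libraries. Without static 7 its log2 fold change was 0.13. H1-4 stood at 85.1 CPM in static 9 and at 63.2 to 68.3 CPM in the other static libraries. Without static 9 its log2 fold change was -0.55, and those other static libraries still lay above each stretch library.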

How the results depend on the processing

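No paired analysis was run, because the groups share no title number. Whether consecutive title numbers form pairs is not stated in the sources used here. Over all genes edgeR called 0 genes, DESeq2 263, limma-voom 1 and edgeR at a threshold of 0.1 called 61. Among histone members, DESeq2 called 2 and the threshold of 0.1 gave 1, H1-4. With a library left out, edgeR called 0 to 39 genes and 0 to 1 members, the highest of both without stretch 4. H1-2, H1-3, H1-4, H1-5 and H1-10 kept their direction in all 18 settings run for each, and the H1-4 values lay between -0.68 and -0.55. The other named members reported, H2AZ1 and H3C12 apart, also kept theirs, so this was not particular to linker genes. All settings reused the same 10 libraries or parts of them. The H2B median ran from -0.19 without static 1 to 0.035 without static 5. Without stretch 6 edgeR called 2 genes and without stretch 10 it called 1. H2AZ1 and H3C12, near 0, changed sign when a library was left out. H2AZ1 ran from -0.032 to 0.12 (-0.0070 and -0.032 without static 5 and 9, and -0.014 and -0.0098 without stretch 8 and 10). H3C12 ran from -0.18 to 0.13, the latter without static 7. The cause of these shifts was not tested. The linker to core ratio of the means, 0.774, ran from 0.754 to 0.799. A floor of 3 counts was 0.354 to 0.679 CPM, and no direction was read from members that failed the filter.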
